A study of Mus musculus with 6 samples.

Results

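The genes described here are 10 genes of major histocompatibility complex (MHC) class I antigen presentation: the heavy chains H2-K1, H2-D1 and H2-T23, their light chain B2m, the peptide transporter subunits Tap1 and Tap2, the loading factor Tapbp, and the inducible proteasome subunits Psmb8, Psmb9 and Psmb10. They were chosen by gene name, and 10 of 10 had a row among the 16854 genes of the deposited table. RNA came from 2 groups of 3 libraries of the mouse myoblast line C2C12, which was derived from a mouse of strain C3H and fuses into myotubes in low serum. Knockdown cells carried a stably expressed short hairpin RNA against Adamtsl2, the gene of an extracellular matrix glycoprotein, and control cells carried a scrambled hairpin. Both groups were kept in 2% horse serum for 3 days after reaching confluence, and the labels call them day 3 of differentiation. The labels name neither the clones nor the hairpin sequence, and nothing in them says whether replicates were separate cultures, so p-values here measure the spread between these libraries, which may be technical. Effects of the depletion, off-target effects of the hairpin and other differences between the stably modified cells cannot be told apart.

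Nearly every nucleated cell shows short peptides of its own proteins on MHC class I molecules, which cytotoxic T cells inspect and natural killer cells count. The proteasome cuts proteins into peptides, the TAP transporter pumps them into the endoplasmic reticulum, and tapasin holds the empty heavy chain and B2m next to the transporter until a peptide fits. Interferons raise the genes of this pathway through IRF1 and the coactivator NLRC5, and in the same response 3 inducible catalytic subunits can replace the constitutive ones in the proteasome. Resting skeletal muscle fibres are known for low surface class I.

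Of the 10 genes, 9 were higher in knockdown cells, and Psmb10 did not pass the test. The test was limma on log2(normalised count + 1), fitted to the 16245 genes that reached a normalised count of 10 in 3 or more libraries, two-sided, with Benjamini-Hochberg adjustment over those genes and a threshold of 0.05. Of all 16245 genes, 45.2% passed, 21.7% as higher and 23.5% as lower. In 9 of the 10 genes every knockdown value lay above every control value, as in 30% of all genes tested, while 32.7% of them had every knockdown value below. On recovered reads edgeR called 8 of the 10 genes higher (45.2% of all genes called, 23.2% higher and 22% lower), and DESeq2 called 9 (52.1% of all genes called, 26.7% higher and 25.3% lower); neither called any lower. Psmb8 and Psmb9 reached the minimum value in knockdown libraries and in none of the control libraries, so they passed the filter through that group and had to differ. Of the other 8 genes, 7 were higher, with a median log2 change of 1.72 over the 8, against -0.0013 over all genes tested. In bulk RNA, more cells with a transcript and more transcript per cell cannot be told apart.

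Across the whole series the counts recovered from the normalised values totalled 39913603 to 49367857 per knockdown library and 37346439 to 50329438 per control library. Adamtsl2 itself was at 23.2, 21.7 and 7.83 in knockdown libraries 1 to 3, against 1325, 1266 and 1307 in control libraries 1 to 3. The third knockdown library stood apart: its log2 values correlated with those of the first and second at Pearson's r of 0.917 and 0.920, while those 2 correlated at 0.996 and control libraries at 0.993 to 0.995. Of 10 skeletal muscle markers, 9 were lower in the knockdown and 1, Myf5, was higher (summed normalised counts 9711 to 11163 in knockdown libraries and 1058047 to 1077961 in control libraries; 9 and 1 also without the third knockdown library). Myog, which drives differentiation, Ckm, the muscle creatine kinase, and Chrna1, an acetylcholine receptor subunit, had log2 changes of -6.36 ± 0.12, -9.96 ± 0.23 and -5.27 ± 0.13 (± gives the SE throughout for log2 changes, with n = 3 in each group). Myf5 had a log2 change of 0.47 ± 0.13 (adjusted p = 0.025, and 0.080 to 0.10 without knockdown library 1 or 2 or control library 1 or 3; also lost under the replicate block). Of all genes tested, 21.7% were higher and 23.5% lower (38.6% and 39.9% without the third knockdown library). The part of these differences in the class I results was not tested.

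**Figure D1:**
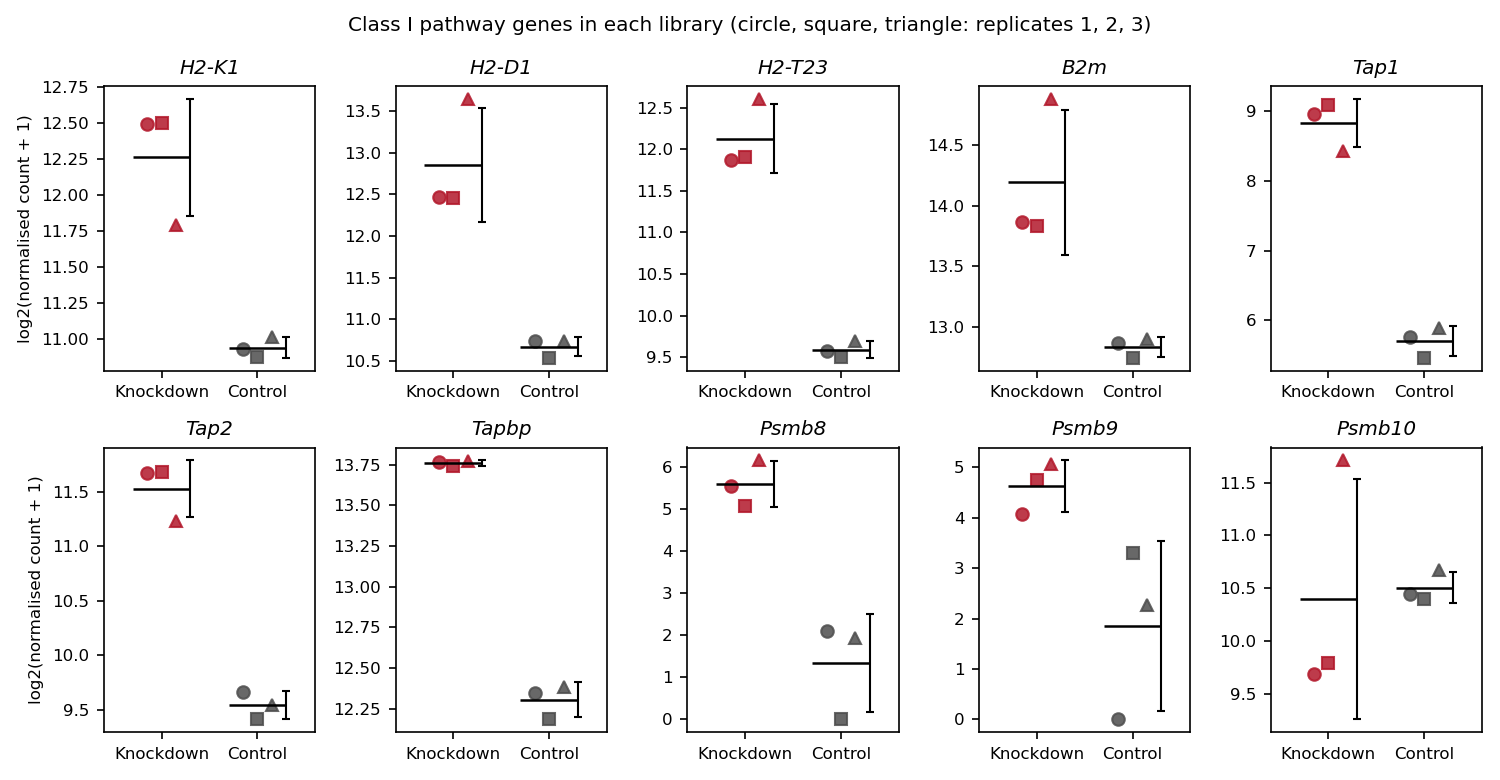
Normalised counts of the 10 genes in each library, on a log2(value + 1) scale, with knockdown libraries on the left and control libraries on the right of each panel; the line is the mean and the bar the SD of 3 libraries. For 9 genes the 3 knockdown values lie above the 3 control values, and for Psmb10 only the third knockdown library (3346) does.

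H2-K1 and H2-D1 are the classical class I heavy chains, which bind peptides in the groove that T cells read. H2-K1 (ENSMUSG00000061232, GRCm38 chromosome 17, 33996017 to 34000347, minus strand, protein coding) had normalised counts of 5758, 5779.97 and 3547 in knockdown libraries 1 to 3, against 1958, 1876 and 2072 in control libraries 1 to 3. The knockdown values lay above the control values in every library, with the third knockdown library the lowest of its group. The log2 change was 1.32 ± 0.22, or 2.49-fold on this scale (adjusted p = 0.0038, limma), and 1.55 without the third knockdown library. H2-D1 (ENSMUSG00000073411, GRCm38 chromosome 17, 35262730 to 35267499, plus strand, protein coding) had 5674, 5594 and 12803 in knockdown libraries, against 1702, 1483 and 1714 in control libraries. Here the third knockdown library was the highest of its group, and the groups again did not overlap. H2-D1 had a log2 change of 2.18 ± 0.34, or 4.54-fold (adjusted p = 0.0031), and 1.79 without that library.

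The balance between these 2 heavy chains was near even in 5 of the 6 libraries. Per kilobase of exon, the ratio of H2-D1 to H2-K1 was 1.12, 1.10 and 4.11 in knockdown libraries 1 to 3, against 0.99, 0.901 and 0.942 in control libraries. The groups did not overlap, and an exact two-sided permutation test gave p = 0.1, and a design of 3 against 3 cannot give less. The third knockdown library was far above the other two. C3H mice carry another MHC haplotype than the reference strain C57BL/6, so reads of these polymorphic genes were counted against alleles that may differ from those of the cells. No stretch of 150 bases, the read length, in the GENCODE M21 transcripts of H2-K1 recurred exactly in a transcript of another gene, and 1.35% of the stretches of H2-D1 recurred, all in H2-Q1. These counts rest on the reference alleles, and the part of the haplotype in the values was not tested.

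The promoters of the classical heavy chains and of B2m are shown because each gene was higher in knockdown cells and the upstream regions carry motifs long studied in class I transcription. The part of these motifs in the values was not tested. The sequences are the 250 bases before the annotated start in RefSeq (GRCm38.p6), printed 5′ to 3′ on the strand of the gene. RefSeq promoters were found for 9 of the 10 genes. Capitals mark matches, on either strand, to 4 motifs: the interferon regulatory factor core AANNGAAA, the kappa B consensus bound by NF-kappaB, the X2 box core TGACG and the CCAAT box.
H2-K1 (chr17:34000348-34000597, minus strand): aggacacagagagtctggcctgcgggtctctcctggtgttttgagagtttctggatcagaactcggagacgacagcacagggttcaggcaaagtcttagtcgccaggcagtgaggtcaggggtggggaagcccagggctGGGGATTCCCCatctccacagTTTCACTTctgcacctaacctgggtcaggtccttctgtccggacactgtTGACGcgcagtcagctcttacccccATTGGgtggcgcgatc
H2-D1 (chr17:35262844-35263093, plus strand): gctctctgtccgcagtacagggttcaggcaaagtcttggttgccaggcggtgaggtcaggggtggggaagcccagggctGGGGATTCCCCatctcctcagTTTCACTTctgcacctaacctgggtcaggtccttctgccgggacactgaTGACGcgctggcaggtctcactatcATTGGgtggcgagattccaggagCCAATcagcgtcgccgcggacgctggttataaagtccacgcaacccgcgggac
B2m (chr2:122147437-122147686, plus strand): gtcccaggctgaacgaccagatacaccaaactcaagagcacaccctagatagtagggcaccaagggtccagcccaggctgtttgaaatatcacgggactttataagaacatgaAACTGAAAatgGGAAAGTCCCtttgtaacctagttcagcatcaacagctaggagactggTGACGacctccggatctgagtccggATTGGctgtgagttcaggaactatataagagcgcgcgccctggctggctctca

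H2-K1 and H2-D1 shared an exact run of 47 bases, which held the kappa B match, while the longest run shared by either of them with B2m was 8 bases. In H2-K1, H2-D1 and B2m the order was similar: kappa B and interferon regulatory factor matches lay farthest upstream, then TGACG, then CCAAT in its reverse form. Kappa B came first in the heavy chains and the interferon regulatory factor core first in B2m. In each heavy chain the kappa B letters held overlapping matches on both strands, and in B2m a match on the reverse strand. H2-D1 had a further CCAAT box on its own strand, 53 bases before the start. The reverse CCAAT lay 16 bases before the start in H2-K1 and 76 in H2-D1. The H2-K1 window thus ended before the place of that further box, and the bases beyond it were not searched. The kappa B consensus was found in 3.90% of the 32851 RefSeq promoter windows of this length and in 3 of the 9 windows of these genes. The interferon regulatory factor core was found in 21.3% of windows and in 4 of the 9 (H2-K1, H2-D1, H2-T23 and B2m). TGACG was found in 17.8% of windows and in 5 of the 9, and CCAAT in 33.8% and in 7 of the 9. The windows of Tap1 and Psmb9 share 225 bases. Their TGACG and CCAAT matches are the same letters, counted once for each gene, so the 9 windows are not separate sequences. The windows of Psmb8 and Psmb10 held none of these letters. A match describes letters and shows no binding.

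H2-T23 encodes Qa-1, a nonclassical heavy chain that shows leader peptides of other class I chains to receptors of natural killer cells. H2-T23 (ENSMUSG00000067212, GRCm38 chromosome 17, 36029773 to 36032855, minus strand, protein coding) had normalised counts of 3748, 3828 and 6219 in knockdown libraries, against 765, 724 and 830.4 in control libraries. The lowest knockdown value stood far above the highest control value, and the third knockdown library was the highest. The log2 change was 2.53 ± 0.22, or 5.78-fold (adjusted p = 3.1e-04), and 2.29 without the third knockdown library. Its promoter window carried 2 interferon regulatory factor cores and a CCAAT box, all in capitals, and no match to the kappa B consensus or to TGACG.
H2-T23 (chr17:36032702-36032951, minus strand): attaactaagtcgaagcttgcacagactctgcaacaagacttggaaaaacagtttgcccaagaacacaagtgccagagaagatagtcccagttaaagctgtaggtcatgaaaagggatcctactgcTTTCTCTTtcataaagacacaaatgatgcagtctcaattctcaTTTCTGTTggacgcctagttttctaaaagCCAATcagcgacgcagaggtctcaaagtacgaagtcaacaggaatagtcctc

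B2m encodes beta-2-microglobulin, the invariant light chain without which most class I heavy chains do not reach the cell surface. B2m (ENSMUSG00000060802, GRCm38 chromosome 2, 122147686 to 122153083, plus strand, protein coding) had normalised counts of 14903, 14601 and 30229 in knockdown libraries, against 7464, 6852 and 7632 in control libraries. The first and second knockdown libraries were close to each other, and the third was about as far above them as they were above control on the log2 scale. Over all libraries the log2 change was 1.36 ± 0.30, or 2.56-fold (adjusted p = 0.013), and 1.01 without the third knockdown library. Its adjusted p was 0.0501 without control library 1 and 0.0555 without control library 2, where it no longer passed. Per kilobase, the sum of H2-K1 and H2-D1 relative to B2m was 0.240, 0.244 and 0.176 in knockdown libraries, against 0.153, 0.152 and 0.154 in control libraries. The knockdown ratios lay above the control ratios in each library (exact two-sided permutation p = 0.1, the smallest possible). B2m was the most abundant of the 10 genes per kilobase in both groups, at 23153 ± 10392 normalised counts per kilobase in knockdown and 8507 ± 477 in control (SD, n = 3 each).

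Tap1 and Tap2 encode the paired subunits of the transporter that carries peptides into the endoplasmic reticulum. Tap1 (ENSMUSG00000037321, GRCm38 chromosome 17, 34187553 to 34197225, plus strand, protein coding) had 497, 546 and 345 normalised counts in knockdown libraries, against 53.4, 42.9 and 58 in control libraries. Every knockdown library was well above every control library. The log2 change was 3.13 ± 0.24, or 8.75-fold (adjusted p = 2.0e-04), the largest among the 8 genes that reached the minimum value in control libraries. Tap2 (ENSMUSG00000024339, GRCm38 chromosome 17, 34203527 to 34216321, plus strand, protein coding) had 3269.8, 3281 and 2401 in knockdown libraries, against 813, 681 and 747 in control libraries. Its groups did not overlap either, and the third knockdown library was again the lowest of its group. Tap2 thus had a log2 change of 1.99 ± 0.17, or 3.96-fold (adjusted p = 2.6e-04). The ratio of Tap2 to Tap1 per kilobase was 9.52, 8.70 and 10.1 in knockdown libraries, against 22, 23 and 18.7 in control libraries, so Tap1 remained the scarcer transcript in both groups. The knockdown ratios were below the control ratios in each library (exact two-sided permutation p = 0.1, the smallest possible).

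Tap1 lies head to head with Psmb9, and their starts in RefSeq are 226 bases apart, so their 250-base promoter windows share 225 bases read on opposite strands. In GENCODE M21, whose coordinates are given for each gene, they overlap instead and share 212 exonic bases. The window of Tap1 is shown because it covers all the bases between both RefSeq starts, and it held a CCAAT box and TGACG.
Tap1 (chr17:34187306-34187555, plus strand): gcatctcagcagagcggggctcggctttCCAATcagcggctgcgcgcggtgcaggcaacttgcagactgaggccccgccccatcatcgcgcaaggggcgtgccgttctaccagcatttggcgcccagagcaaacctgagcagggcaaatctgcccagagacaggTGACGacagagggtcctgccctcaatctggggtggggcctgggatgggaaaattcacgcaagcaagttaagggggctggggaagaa

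Tapbp encodes tapasin, which bridges TAP and the empty class I molecule and edits its peptides. Tapbp (ENSMUSG00000024308, GRCm38 chromosome 17, 33915899 to 33929292, plus strand, protein coding) had 13907, 13689.6 and 13995 normalised counts in knockdown libraries, against 5206, 4652 and 5346 in control libraries. The 3 knockdown values were close to each other and the groups were far apart. Tapbp had a log2 change of 1.45 ± 0.11, or 2.74-fold (adjusted p = 2.1e-04), and 1.45 without the third knockdown library. In the annotation 24.9% of the exonic bases of Tapbp are shared with Gm19412 on the opposite strand, so reads of the pair could not be told apart if counting ignored strand, a setting no source used here states. Smaller overlaps touched Tap2 (14.1% with Gm15821), Psmb8 (14.7% with Gm20496) and Tap1 with Psmb9 (3.87% of Tap1 and 5.79% of Psmb9).

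Of 9 other genes for folding and loading class I molecules, 1 was higher, 1 was lower and 7 did not pass. Their median log2 change was -0.0088. Of all genes tested, 21.7% were higher and 23.5% lower. Calr, a chaperone of the loading complex, had 64273, 64916 and 129018 in knockdown libraries, against 37909, 37066 and 38285 in control libraries. It was higher by 1.11 ± 0.31 log2 (adjusted p = 0.030), and 0.77 without the third knockdown library, whose value was highest, but it did not pass with any control library left out (0.096 to 0.099). Hspa5, the main Hsp70 chaperone of the endoplasmic reticulum, fell by 0.69 ± 0.16 (adjusted p = 0.013, also lost with any control library left out and under the replicate block). Canx, the membrane-bound relative of Calr, had a log2 change of 0.02 ± 0.16, Pdia3, the thiol oxidoreductase bound to tapasin, of -0.03 ± 0.13, and Erap1, the aminopeptidase that trims peptides, of -0.01 ± 0.31, none past the threshold (adjusted p of 0.91, 0.88 and 0.98). Without the third knockdown library 4 of the 9 were higher and 2 lower, Erap1 among the higher at 0.35. Of all genes tested, 38.6% were then higher and 39.9% lower.

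**Figure D2:**
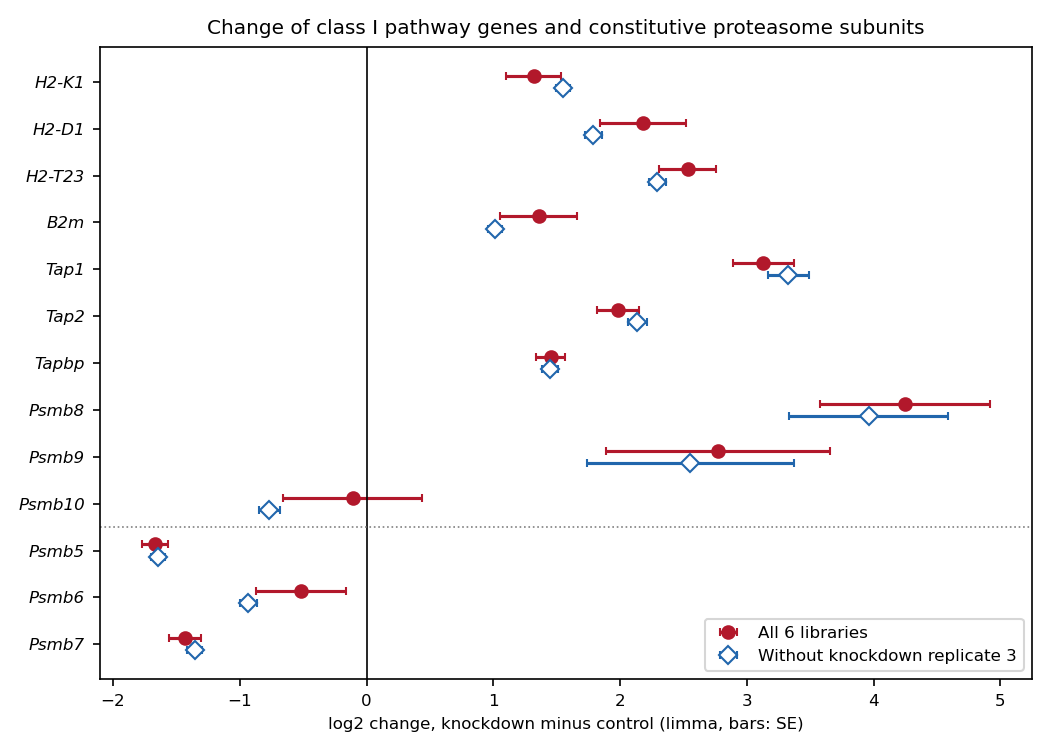
Log2 change of the 10 genes (above the dotted line) and of the 3 constitutive catalytic proteasome subunits (below it), knockdown minus control, with all 6 libraries (filled circles) and without knockdown replicate 3 (open diamonds); bars are limma standard errors. Psmb10 sits at -0.11 with 6 libraries and at -0.77 without that library, while the other 9 stay above 0 in both.

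Psmb8, Psmb9 and Psmb10 encode the inducible catalytic subunits of the immunoproteasome, which replace Psmb5, Psmb6 and Psmb7 in that order and favour peptides that fit class I grooves. Psmb8 (ENSMUSG00000024338, GRCm38 chromosome 17, 34197721 to 34201454, plus strand, protein coding) had 45.6, 32.6 and 70.4 normalised counts in knockdown libraries, against 3.27, 0 and 2.85 in control libraries, from 157 reads in the knockdown and 6 in control. Its groups were separate, as the filter required of both Psmb8 and Psmb9, but control values stood on 0 to 3 reads per library. After scaling for depth, the ratio of its reads was 21.9 (exact 95% binomial interval 9.85 to 60.7, counting error only), and the log2 change was 4.24 ± 0.67 (adjusted p = 0.0033). Without control library 2, which had 0 reads, the log2 change was 3.57. Psmb9 (ENSMUSG00000096727, GRCm38 chromosome 17, 34181987 to 34187764, minus strand, protein coding) had 15.8, 25.9 and 32.4 in knockdown libraries, against 0, 8.84 and 3.80 in control libraries, from 79 and 11 reads. The lowest knockdown value, 15.8, was not far above the highest control value, 8.84. Its scaled ratio was 6.02 (3.19 to 12.5) and its log2 change 2.77 ± 0.88 (adjusted p = 0.045). It did not pass with edgeR's quasi-likelihood test (adjusted p = 0.059), nor in limma with a pseudocount of 0.5 (adjusted p = 0.062), nor without knockdown library 1 or 2 (0.071 and 0.11) or control library 1 or 3 (0.059 and 0.097). The log2 change ranged from 1.85 without control library 1, which had 0 reads, to 3.50 without control library 2, and was 1.77 with a pseudocount of 5.

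Psmb10 (ENSMUSG00000031897, GRCm38 chromosome 8, 105935735 to 105938444, minus strand, protein coding) was the exception. It had 823, 887 and 3346 normalised counts in knockdown libraries 1 to 3, against 1394, 1350.2 and 1631 in control libraries. The first and second knockdown libraries lay below every control library and the third lay above every one. The log2 change was -0.11 ± 0.55 (adjusted p = 0.89), and without the third knockdown library it was -0.77 (adjusted p = 1.5e-05), so whether Psmb10 was called lower rests on that library. Without it, 39.9% of all genes tested were lower and 38.6% higher. Of the 10 genes, 9 were then higher and 1, Psmb10, lower.

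Of the 3 constitutive partners, 2 were lower and 1 did not pass, where 23.5% of all genes tested were lower. Psmb5 had 1997, 2036 and 1933 normalised counts in knockdown libraries, against 6211, 6051 and 6719 in control libraries, a log2 change of -1.67 ± 0.10 (adjusted p = 9.1e-05). Psmb7 had 3445, 3532 and 2981 in knockdown libraries, against 9084, 8258 and 9518 in control libraries, and fell by 1.43 ± 0.13 (adjusted p = 3.2e-04). Both were lower in each knockdown library than in any control library. Psmb6 had 4273, 4484 and 10312 in knockdown libraries, against 8116, 7808 and 9192 in control libraries. In the third knockdown library it stood above all controls, and the log2 change of -0.52 ± 0.36 did not pass (adjusted p = 0.28, and -0.93 without that library, adjusted p = 5.7e-07).

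The share of each catalytic pair held by its inducible subunit, from normalised counts per kilobase of exon, was small for 2 pairs. Lengths were unions of all annotated exons, at 3381 bases for Psmb8 and 899 for Psmb5. They were 3660 for Psmb9 and 1872 for Psmb6, and 1705 for Psmb10 and 3421 for Psmb7. The level of each share depends on these lengths, which need not be those of the transcripts present. Psmb8 held 0.603, 0.424 and 0.960% of its pair in knockdown libraries, against 0.0140, 0 and 0.0113% in control libraries. Psmb9 held 0.188, 0.295 and 0.161% in knockdown libraries, against 0, 0.0579 and 0.0211% in control libraries. So most transcripts of these 2 pairs came from the constitutive gene in every library, at under 1% inducible on this scale. Psmb10 held 32.4, 33.5 and 69.2% of its pair in knockdown libraries, against 23.5, 24.7 and 25.6% in control libraries, higher in each knockdown library. For the first and second knockdown libraries that rise in share went with lower counts of both Psmb10 and Psmb7. Each of the 3 shares had separate groups and an exact two-sided permutation p of 0.1, the smallest possible. Psmb8 and Psmb9 passed the filter through the knockdown alone and had to differ, so the separation of their shares is no further result.

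**Figure D3:**
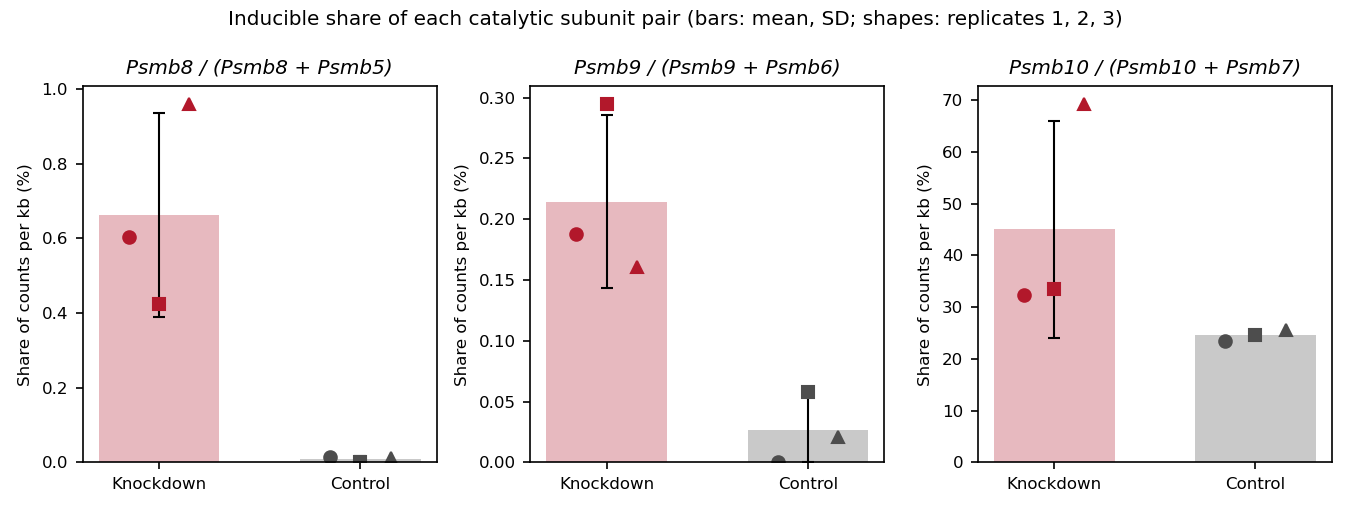
Share of each catalytic subunit pair held by the inducible gene, in percent of normalised counts per kilobase of exon, by library; bars are means and whiskers SDs of 3 libraries, drawn no lower than 0. The vertical scales differ: Psmb8 and Psmb9 stay under 1%, and Psmb10 reaches 69.2% in the third knockdown library.

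Other proteasome subunits were lower or did not pass. Of 18 genes of the 19S regulatory particle, which unfolds substrates, 12 were lower, where 23.5% of all genes tested were lower. The median log2 change of the 18 was -1.0. Without the third knockdown library 18 were lower, where 39.9% of all genes tested were lower. The ATPase Psmc4 had 2423, 2364 and 2649 in knockdown libraries, against 6193, 5939 and 6481 in control libraries, with the groups separate. Its log2 change was -1.32 ± 0.11 (adjusted p = 2.4e-04), and those of the non-ATPase subunit Psmd6 and the ATPase Psmc2 were -1.04 ± 0.11 and -1.37 ± 0.16. Of 16 other 20S subunits and assembly factors, 0 passed in limma, where 45.2% of all genes tested passed. At an unadjusted p under 0.05, 3 were lower in limma, and 0 passed with edgeR or DESeq2. Without the third knockdown library 16 were lower, beside the same 39.9% of all genes tested. Psmb1, with the highest mean normalised count of this list though not per kilobase, had 6367, 6925 and 21653 in knockdown libraries, against 9837, 9424 and 10669.5 in control libraries. The list's median log2 change was -0.41 with 6 libraries and -0.84 without it.

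Of 4 proteasome activators, 1 was higher, 2 were lower and 1 did not pass. Of all genes tested, 21.7% were higher and 23.5% lower. Psme1 and Psme2 encode the subunits of PA28, the interferon-inducible cap, and Psme3 and Psme4 encode the nuclear activators PA28-gamma and PA200. Psme1 had 2387, 2502 and 6095 in knockdown libraries, against 1499, 1436 and 1488 in control libraries, separate groups with the third knockdown library far above. It was higher by 1.17 ± 0.37 log2 (adjusted p = 0.045), 0.73 without the third knockdown library, and did not pass with any control library left out (0.12 to 0.13) or without the trend. Psme2 had 3036, 3171 and 8834 in knockdown libraries, against 2459, 2361 and 2747 in control libraries, and did not pass (0.80 ± 0.42, adjusted p = 0.17), but passed at 0.30 without that library. Psme3 and Psme4 fell, with log2 changes of -0.72 ± 0.17 and -0.87 ± 0.19 (adjusted p of 0.014 and 0.012); Psme3 lost its call with any control library left out, and Psme4 with control library 1 or 2 left out. Of 7 cytosolic peptidases that trim or destroy peptides, 6 were lower (7 without the third knockdown library), with a median of -0.89. Of all genes tested, 23.5% were lower with 6 libraries and 39.9% without that library. Thop1, an oligopeptidase, had a log2 change of -2.35 ± 0.11, the leucine aminopeptidase Lap3 of -0.89 ± 0.10 and the hydrolase Blmh of -0.80 ± 0.13.

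**Figure D4:**
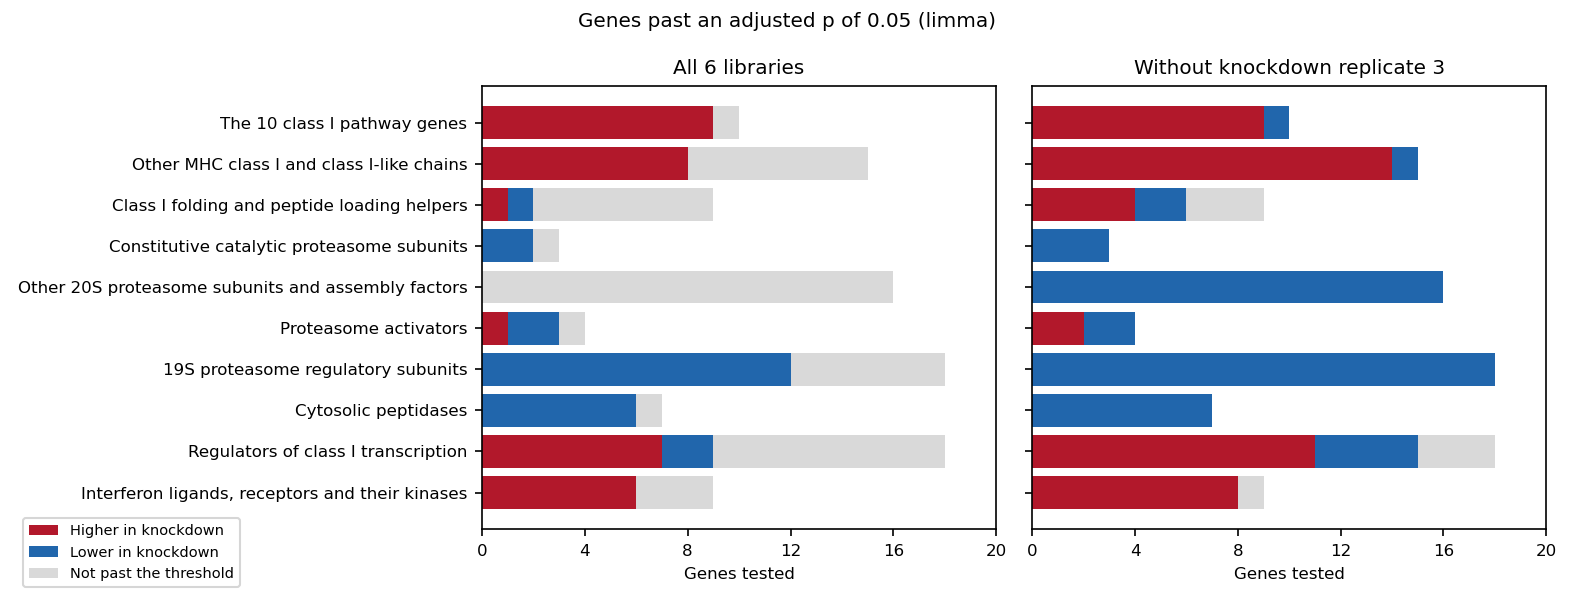
Number of genes tested in each group of the pathway that were higher (red), lower (blue) or not past an adjusted p of 0.05 (grey) in knockdown against control, with all 6 libraries (left) and without knockdown replicate 3 (right). The 10 genes are mostly red, the 19S and peptidase lists are mostly blue, and the other 20S list is grey with 6 libraries and blue without that library. Of all genes tested, 21.7% were higher and 23.5% lower with 6 libraries, and 38.6% and 39.9% without that library.

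Other class I and class I-like chains also differed. Of 15 measured, 8 were higher and 7 did not pass, where 21.7% of all genes tested were higher and 23.5% lower. Their median log2 change was 1.42. H2-Q6 passed the filter through its knockdown values alone. Without the third knockdown library 14 were higher and 1 lower, H2-M5, named after its values were seen. In that setting 38.6% of all genes tested were higher and 39.9% lower. H2-M3, which presents formylated peptides of bacteria and mitochondria, had 482, 467 and 484 in knockdown libraries, against 55.6, 64.4 and 71.3 in control libraries. Its knockdown values lay close together and far above control, with a log2 change of 2.89 ± 0.16 (adjusted p = 6.7e-05). H2-Q4, a nonclassical chain of the Q region, had 1022, 1035 and 691 in knockdown libraries, against 51.2, 59.4 and 69.4 in control libraries, a log2 change of 3.90 ± 0.23 (adjusted p = 7.1e-05). Cd1d1, which presents lipids to natural killer T cells and lies outside the MHC on chromosome 3, had 206, 216 and 248 in knockdown libraries, against 12, 10.1 and 19 in control libraries, a log2 change of 3.97 ± 0.29 (adjusted p = 1.5e-04). Chains of the Q region are close copies of each other, so the split of reads among them is uncertain.

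Among 18 regulators of class I transcription, 7 were higher and 2 lower, where 21.7% of all genes tested were higher and 23.5% lower. Nlrc5, the coactivator of class I promoters, was scarce, with 36.5, 36 and 45.8 normalised counts in knockdown libraries, against 10.9, 5.05 and 6.65 in control libraries. The groups did not overlap and the log2 change was 2.29 ± 0.36 (adjusted p = 0.0031). Irf1, an activator of class I genes, had 3131, 2995 and 2867 in knockdown libraries, against 1945, 1848 and 1978 in control libraries, and was higher by 0.64 ± 0.10 (adjusted p = 0.0035). Irf2, which binds the same sites as Irf1, and Irf9, which acts downstream of the type I interferon receptor, were higher by 0.91 ± 0.10 and 0.64 ± 0.13. Rfxap, a subunit of the RFX complex that binds the X box, and Relb, an NF-kappaB subunit, had log2 changes of -0.37 ± 0.11 and -0.38 ± 0.12 (adjusted p of 0.036 and 0.038), calls lost when any single library other than the third knockdown library was left out, under the replicate block and without the trend. Among the 7 higher genes Creb1 and Nfkb1, named after their values were seen, lost their calls in the same leave-outs and under the block, Creb1 also without the trend. Without the third knockdown library 11 of the 18 were higher and 4 lower, where 38.6% of all genes tested were higher and 39.9% lower.

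Interferon receptors, their kinases and the feedback inhibitors Socs1 and Socs3 made up 9 measured genes, and the ligands Ifnb1, Ifng, Ifna4 and Ifnl3 were not analysed here. Of the 9, 6 were higher and 3 did not pass, where 21.7% of all genes tested were higher and 23.5% lower. The median log2 change of the 9 was 0.86. Without the third knockdown library 8 were higher, where 38.6% of all genes tested were higher and 39.9% lower. The 6 included Socs1, whose call was lost without control library 1, and Socs3 joined the higher genes without the third knockdown library; both were named after their values were seen. Jak2, a kinase of the interferon gamma receptor, had 6065, 5896 and 3312 in knockdown libraries, against 1077, 1167 and 1145 in control libraries, a log2 change of 2.12 ± 0.25 (adjusted p = 0.0011). Ifnar1 and Ifnar2, the chains of the type I interferon receptor, were higher by 1.02 ± 0.15 and 1.07 ± 0.14. Of 8 ligands and checkpoints read by natural killer and T cells, 3 were higher and 2 lower (3 and 3 without the third knockdown library). Of all genes tested, 21.7% were higher and 23.5% lower (38.6% and 39.9% without that library). Cd47, which inhibits phagocytosis, was higher by 2.07 ± 0.27 and Raet1e, a ligand of the activating receptor NKG2D, by 1.71 ± 0.26. Cd274, the checkpoint ligand PD-L1, was higher by 1.52 ± 0.35 (adjusted p = 0.015, lost without knockdown library 1 or 2 or control library 3). Pvr, a ligand of the receptor DNAM-1, and Ulbp1, another NKG2D ligand, had log2 changes of -1.10 ± 0.10 and -3.16 ± 0.73, the second -2.29 without the third knockdown library; the call for Ulbp1 was lost with any control library left out.

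MHC class II genes, which professional antigen-presenting cells use, were measured for 3 of 11 genes; Cd74 and Ciita were added to the named genes after their values were seen. H2-DMa, a peptide exchange factor, was higher by 1.83 ± 0.14 log2, with 489, 517 and 486 in knockdown libraries, against 148, 138 and 133 in control libraries. Cd74, the invariant chain, had 7.46, 13.4 and 12.3 in knockdown libraries, against 16.3, 31.6 and 9.50 in control libraries. Ciita, the class II transactivator, had 11.6, 12.5 and 23.5 in knockdown libraries, against 14.2, 15.2 and 9.50 in control libraries, and neither passed. Of 10 leukocyte markers, 5 were not analysed here. The other 5 summed to 113 to 234 in knockdown libraries and 119 to 159.6 in control libraries, with 1 higher, Lyz2, and 1 lower, Itgam (1 and 3 without the third knockdown library). Both of these passed the filter only through the group where they were high and had to differ. Of all genes tested, 21.7% were higher and 23.5% lower with 6 libraries, and 38.6% and 39.9% without the third knockdown library. Lyz2, a lysozyme, had 42.3, 42.7 and 62.6 in knockdown libraries, against 2.18, 0 and 1.90 in control libraries. Itgam, an integrin of myeloid cells, had 0, 0 and 5.59 in knockdown libraries, against 27.2, 42.9 and 30.4 in control libraries. Cd68 had 55.5, 69.4 and 51.4 against 41.4, 39.2 and 67.5, Csf1r had 8.29, 9.20 and 72.7 against 29.4, 51.8 and 40.9, and Fcer1g had 6.63, 2.51 and 41.4 against 18.5, 15.2 and 19, in knockdown against control libraries, with overlapping groups. No library exceeded 72.7 normalised counts for any of these 5 markers, and their part in the class I results was not tested.

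Markers of other cell types differed as well. Of 6 fibroblast and mesenchymal markers, 3 were higher, Ly6a by 7.90 ± 0.20, Cd34 by 6.36 ± 0.18 and Dcn by 4.22 ± 0.31 log2 (summed normalised counts 334381 to 473864 in knockdown libraries and 464829.9 to 492087 in control libraries; 4 higher and 2 lower without the third knockdown library). The collagen Col3a1, named after its values were seen, had 362051, 356899.95 and 145199.6 in knockdown libraries, against 459949, 484948 and 457882 in control libraries, and made up most of the control sum. Its log2 change of -0.81 ± 0.44 did not pass (adjusted p = 0.18), and it was -0.38 and passed without the third knockdown library. Lum, a small proteoglycan named in the same way, likewise had every knockdown value below every control value, at -0.29 ± 0.13 log2 (adjusted p = 0.11), and passed at -0.32 without that library. In that setting 38.6% of all genes tested were higher and 39.9% lower. With 6 libraries these shares were 21.7% and 23.5%. Of 3 epithelial markers measured, the keratin Krt14 was higher by 6.04 ± 0.18 and Krt8, which passed the filter only through the control and had to differ, had a log2 change of -2.90 ± 0.53 (sums 1951 to 2722 in knockdown libraries and 72.2 to 80.8 in control libraries). Of 3 endothelial markers measured, 2 were tested: Tek, which passed the filter only through the knockdown and had to differ, was higher by 2.27 ± 0.42, and Vwf had a log2 change of -3.14 ± 0.67, or -3.91 without the third knockdown library (sums 34 to 159.9 in knockdown libraries and 191 to 241 in control libraries). The adipocyte regulator Pparg, the only 1 of 6 adipocyte markers measured, was higher by 1.28 ± 0.18 (sums 408 to 584 in knockdown libraries and 205 to 212 in control libraries). Epithelial, endothelial and adipocyte calls were the same without the third knockdown library, and their part in the class I results was not tested.

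Across the 10 genes the third knockdown library stood above the first and second for some and below them for others. Relative to the mean of the first and second (of log2 values), it was at 3.91 times for Psmb10, 2.27 times for H2-D1 and 2.05 times for B2m, and at 0.615 times for H2-K1, 0.663 times for Tap1 and 0.733 times for Tap2. Tapbp stood level at 1.01 times. Across the 10 genes the shift ran against exonic length, with Spearman's rho of -0.745, and across the 16200 tested genes with a length it was -0.278, as a description over genes that share these 3 libraries. In that library Malat1, a nuclear noncoding RNA, took 2.83% of normalised counts, against 0.511 and 0.515% in the first and second and 0.302 to 0.333% in control libraries. Protein-coding genes took 93.6% of its counts, against 98.0% in each of the first and second and 97.7 to 97.8% in control libraries. The part of these properties in the values of the 10 genes was not tested, and 9 of the 10 genes were higher without that library.

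**Figure D5:**
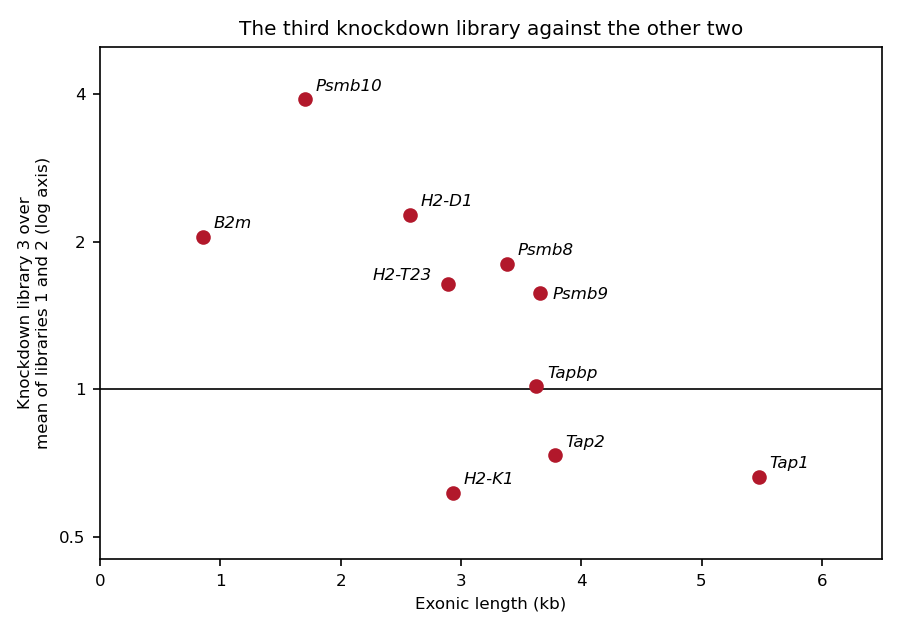
Knockdown library 3 over the mean of knockdown libraries 1 and 2 (log axis, from log2(value + 1)) against exonic length in kilobases for the 10 genes; the line marks no difference. Psmb10 is at 3.91, B2m at 2.05 and H2-K1 at 0.615, although H2-K1 is about as long as H2-T23 (1.64).

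By level per kilobase, the knockdown order was B2m, Tapbp, H2-D1, H2-K1, H2-T23, Psmb10, Tap2, Tap1, Psmb8 and Psmb9. This order depends on the annotated exon lengths, which need not be those of the transcripts present. Tapbp averaged 3821 ± 43.3 normalised counts per kilobase in knockdown cells and 1397 ± 101 in control cells (SD, n = 3 each). H2-D1 averaged 3111 ± 1605 and H2-K1 1711 ± 437 in knockdown cells, against 633 ± 50.4 and 670.05 ± 33.6 in control cells. At the low end, Psmb8 averaged 14.7 ± 5.68 and Psmb9 6.75 ± 2.30 in knockdown cells, against 0.603 ± 0.526 and 1.15 ± 1.21 in control cells. In knockdown cells each neighbour from Tapbp down to Tap2 differed from the next by less than the larger of their SDs. In control cells the neighbours H2-K1 and H2-D1, and Psmb9 and Psmb8, did not differ beyond their spread, and Psmb10 (855 ± 88.8) stood next after B2m and Tapbp. Among 11823 other genes with a mean of at least 100, those whose 6 values, as log2 differences from their own control mean, lay nearest to the median of the 10 genes were Adora2b, Fbxw9, Cyb5a, Ifitm3 and Cep112, at root mean square distances of 0.0581, 0.0708, 0.0873, 0.0874 and 0.0910 log2.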

How the data were processed

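Poly(A) RNA of 3 knockdown and 3 control libraries was sequenced as paired 150 bp reads, per the labels' protocols. Per the submitters' processing notes, the authors used Trimmomatic 0.36, featureCounts in Subread 1.5.2, DESeq2 and GRCm38. Neither the aligner nor the annotation release nor the strand setting is given in the sources used here. Each deposited signal is a gene count over its library's size factor, and the authors' deposited table also holds a log2 fold change, a p-value and an adjusted p-value. Reads were recovered by taking the smallest positive value of each library as a single read. On that scale 100% of the values came out whole (tolerance 0.01 reads). On these reads edgeR called 7344 genes and DESeq2 8461, while limma called 7342 on the normalised values. Intervals and floors cover counting error only.

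limma 3.58.1 (R 4.3.3) was fitted to log2(value + 1) of 16245 genes with a mean-variance trend and no block. For low genes such fold changes depend on the pseudocount. For Psmb9 the log2 change was 2.77 with 1, 3.15 with 0.5 and 1.77 with 5, against 2.59 with edgeR. Lengths are unions of GENCODE M21 exons (16806 genes matched). The 10 genes, the gene lists and the tests were chosen with earlier results of these data known. Named were the 10 genes, fixed regulators and partners, up to 3 genes per list and direction by adjusted p (the most abundant where none passed), every leukocyte marker measured and the 5 genes of nearest pattern; 1 regulator under this rule is not reported here. edgeR 4.0.16 and DESeq2 1.42.0, other filters, pseudocounts, scaling, a replicate block and leaving out each library were alternatives. List counts without the third knockdown library were added after seeing the data. The procedure was tested on simulated counts with the same spread in every library. None of those libraries stood apart as the third knockdown library does, so the simulation does not cover that case.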

Additional observations from a re-analysis of the deposited data

How the results depend on the processing

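The number of the 10 genes called higher was 9 with 6 libraries. It was 9 without a filter, with a pseudocount of 5, with TMM scaling, without the trend, with DESeq2 and with a replicate block, 8 with a pseudocount of 0.5 and with edgeR, 7 with a minimum value of 50 (8 genes tested), and 7 to 9 with 1 library left out. The number called lower was 0 to 1 with 1 library left out, and the 1, without the third knockdown library, was Psmb10. Over all genes 7342 were called, 5101 to 12754 with 1 library left out (12754 without the third knockdown library) and 6311 with the replicate block. Of 148 single-gene results under alternatives, 139 kept their side of the threshold and direction where called, 8 lost the call (Psmb9 with 6 and B2m with 2) and 1 gained it (Psmb10). The log2 change of Psmb10 was 0.25 with edgeR and 0.24 with DESeq2, not called. The cause of these changes was not tested. Same-numbered libraries deviated together at r of 0.017, 0.105 and 0.143, and the labels give no shared origin, so the numbers were not taken to pair them; under the block 9 of the 10 genes remained higher. Psmb8 and Psmb9 rest on 6 and 11 control reads, where a count of 0 allows up to 3 reads per library.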
